A study of Mus musculus with 7 samples.

Results

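HDAC1 binding at 10 growth and cell-cycle genes was read from a list of ChIP-seq peaks of mouse limb buds. A peak was counted for a gene when it covered at least 1 bp of the gene body with 10 kb added on each side (the gene window, GENCODE annotation, mm10), and 23 of the 15347 peaks did so. Of these, 13 lay at 6 genes that promote growth or the cell cycle (Myc, Mycn, Ccnd1, Ccnd2, Ccnd3 and Cdk6, called growth genes here) and 10 at 4 genes of inhibitors (Cdkn1a, Cdkn1b, Cdkn1c and Cdkn2a). The chromatin came from wild-type Swiss Webster embryos at E11.5 with 40 to 44 somites, as 4 ChIP samples with an HDAC1 antibody (Abcam ab7028) and 3 inputs without antibody. Each sample pooled fore- and hindlimb buds of 3 litters, with no mutant or treated group, so a peak can come from any of the cell types of the limb bud. The deposited list used here was made by the authors from all ChIP samples together and gives the position of each peak in rank order. Read depth and enrichment at a peak were not analysed here, positions pooled over samples carry no replicate error, and peaks and genes are not replicates, so the comparisons are descriptions without a test. A list of positions also gives no expression of marker genes against which the labelled tissue could be checked.

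HDAC1 takes acetyl groups off histone tails, mostly as the catalytic subunit of corepressor complexes. It is found at many active promoters as well as at silenced genes. MYC proteins are transcription factors that drive growth, and Mycn is known for its role in the expansion of limb mesenchyme. The D-type cyclins encoded by Ccnd1, Ccnd2 and Ccnd3 activate the kinase encoded by Cdk6, which phosphorylates the retinoblastoma protein and so releases E2F factors. That protein in its unphosphorylated form recruits deacetylases to E2F target genes. The inhibitors act against this step or the next, CIP/KIP proteins (from Cdkn1a, Cdkn1b and Cdkn1c) by binding cyclin-kinase complexes and INK4 proteins by binding CDK4 and CDK6.

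The reference sequence at the starts of 4 of the genes is shown because HDAC1 peaks covered some of these starts and not others. Sequences are from RefSeq (GRCm38.p6, strain C57BL/6J, not the strain of the embryos) and run 5′ to 3′ in the direction of the gene. Those before a start stop ahead of the first base transcribed from it, while the last one is an intronic peak. RefSeq promoter windows matched 6 of the 10 genes, with 9 windows, and no window was matched for Myc, Ccnd1, Ccnd2 and Cdkn1c. The Mycn and Cdk6 stretches lie wholly within the longest peaks of the 10 genes. Capitals mark TTTGGCGC, the letters of an E2F-type site, in Mycn. In Cdk6 they mark CACGTG, the letters of the canonical E-box bound by MYC with its partner MAX, and TATAAA, the letters of a TATA box. They mark runs of letters only, and whether the TATAAA in Cdk6 acts as a TATA box was not tested.
Mycn, chr12:12941915-12942086, minus strand: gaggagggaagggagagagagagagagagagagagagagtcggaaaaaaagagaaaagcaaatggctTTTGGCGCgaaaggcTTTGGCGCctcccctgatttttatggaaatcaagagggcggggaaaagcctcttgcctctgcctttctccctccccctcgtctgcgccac
Cdk6, chr5:3343643-3343892, plus strand: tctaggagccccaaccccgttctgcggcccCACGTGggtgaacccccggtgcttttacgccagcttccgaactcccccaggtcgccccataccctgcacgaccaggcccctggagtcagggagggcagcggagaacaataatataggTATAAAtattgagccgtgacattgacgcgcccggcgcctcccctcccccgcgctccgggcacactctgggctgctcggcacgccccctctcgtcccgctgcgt

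In the next stretches, from Cdkn2a and Cdkn1a, capitals mark each CpG. Cdkn2a has separate starts for its protein products, ARF and INK4A. The stretch before the ARF start lay in an HDAC1 peak, and the stretch before the INK4A start did not. None of the bases shown before a pair of Cdkn1a starts were in a peak, and the last sequence is the whole of the intronic peak of that gene.
Cdkn2a, ARF start, chr4:89294654-89294869, minus strand: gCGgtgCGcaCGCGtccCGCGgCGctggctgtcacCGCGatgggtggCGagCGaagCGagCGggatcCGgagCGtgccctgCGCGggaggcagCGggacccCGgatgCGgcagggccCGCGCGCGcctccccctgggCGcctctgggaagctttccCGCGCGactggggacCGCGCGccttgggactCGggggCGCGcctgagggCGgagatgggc
Cdkn2a, INK4A start, chr4:89282193-89282442, minus strand: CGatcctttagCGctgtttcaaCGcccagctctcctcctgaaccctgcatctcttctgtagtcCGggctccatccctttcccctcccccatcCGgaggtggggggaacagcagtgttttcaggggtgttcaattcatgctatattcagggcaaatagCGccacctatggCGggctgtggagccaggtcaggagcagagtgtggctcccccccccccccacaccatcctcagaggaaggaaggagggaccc
Cdkn1a, far start, chr17:29090729-29090978, plus strand: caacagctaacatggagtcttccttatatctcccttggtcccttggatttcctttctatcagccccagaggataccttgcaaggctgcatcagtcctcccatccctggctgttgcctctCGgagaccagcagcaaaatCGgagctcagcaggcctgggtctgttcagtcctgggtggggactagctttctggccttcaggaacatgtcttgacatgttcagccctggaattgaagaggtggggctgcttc
Cdkn1a, near start, chr17:29093519-29093768, plus strand: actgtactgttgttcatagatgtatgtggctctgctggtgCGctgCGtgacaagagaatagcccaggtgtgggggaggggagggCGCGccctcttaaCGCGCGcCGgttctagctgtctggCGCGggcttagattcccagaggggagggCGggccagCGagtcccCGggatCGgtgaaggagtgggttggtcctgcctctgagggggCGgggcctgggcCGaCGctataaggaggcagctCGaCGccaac
Cdkn1a, intronic peak, chr17:29094150-29094349, plus strand: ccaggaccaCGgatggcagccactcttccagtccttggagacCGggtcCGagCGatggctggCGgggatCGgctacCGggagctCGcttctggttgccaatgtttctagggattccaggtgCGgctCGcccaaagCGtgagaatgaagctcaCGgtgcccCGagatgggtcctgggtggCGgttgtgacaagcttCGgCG

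HDAC1 was found at all 10 genes. Each had at least 1 peak in its window, against 53.8% of 21938 protein-coding genes, and each had at least 1 peak in its own promoter region, against 43.9% of these genes. A promoter region reached 2 kb before and 1 kb past a protein-coding start of the gene. At least 2 peaks were present at 8 of the 10 genes, against 24.6% of protein-coding genes, the exceptions being Cdk6 and Cdkn2a. The windows were 22712 to 209524 bp long with a median of 29873.5 bp, and the median over all protein-coding genes was 37425 bp. The genes differed from each other in the length of their longest peaks.

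Mycn held the first-ranked and longest peak of the set. Mycn (chromosome 12, 12936093 to 12941914, minus strand) was covered by a peak of 4100 bp at rank 184 (12938800 to 12942899), which ran from -2283 to 1816 bp relative to the start of its shorter transcript and also held the other start. Of the 15347 peaks, 67 were at least this long, itself included. A second peak of 1400 bp at rank 3960 followed after a gap of 100 bp, over 1089 bp of intron and 311 bp of coding sequence, and together they covered 77.6% of the gene body.

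Myc showed a similar form at a lower rank. Its first peak, of 3150 bp at rank 3368 (chromosome 15, 61984100 to 61987249), contained 4 of the 5 annotated coding starts. None of the 500 peaks within 250 ranks of it was as long, and their median length was 800 bp. The second peak (500 bp, rank 13123) lay 250 bp further on in an exon, almost all of it coding sequence. The peaks covered 47.3% of the Myc gene body.

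At the D-type cyclin genes Ccnd1 and Ccnd2 HDAC1 formed rows of peaks around or before the start. Ccnd1 (chromosome 7, 144929931 to 144939925, minus strand) had a peak of 2700 bp at rank 893 over its start. Upstream of it lay peaks of 1750 bp at rank 2861 and of 800 bp at rank 448, the latter outside the promoter region, at -3780 to -2981 bp from the start. The best rank at Ccnd1 thus belonged to its shortest peak, which was also the only growth-gene peak shorter than the median of the peaks near its rank (1500 bp).

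Ccnd2 (chromosome 6, 127125162 to 127152193, minus strand) was arranged alike, with 3 peaks and the largest summed length of the 10 genes, 6500 bp. The peak of 2550 bp at rank 554 held the 3 coding starts and both starts of the antisense RNA 9330179D12Rik. The peaks of 1250 bp (rank 4906) and 2700 bp (rank 1698) lay between -4639 and -540 bp from the first start, separated by 150 bp.

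Ccnd3 differed in which start was covered. This gene (chromosome 17, 47505051 to 47599691, plus strand) has a group of 4 upstream starts and 2 internal ones. The upstream starts had no peak nearer than 88301 bp, and the neighbouring gene Taf8, whose 2 starts fall in the same window, had no promoter peak either. Both internal starts were covered, by a peak of 2050 bp at rank 1109 and one of 450 bp at rank 10193. The longer of these ran from -20 to 2029 bp relative to its start.

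Cdk6 had a single peak. This gene (chromosome 5, 3341485 to 3531008, plus strand) is the longest of the 10, at 189524 bp, and its peak of 3600 bp at rank 587 (3341100 to 3344699) held both coding starts and ran from -2793 to 806 bp relative to the first of them. The rest of the gene body was without a peak, and 1.70% of it was covered.

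**Figure D1:**
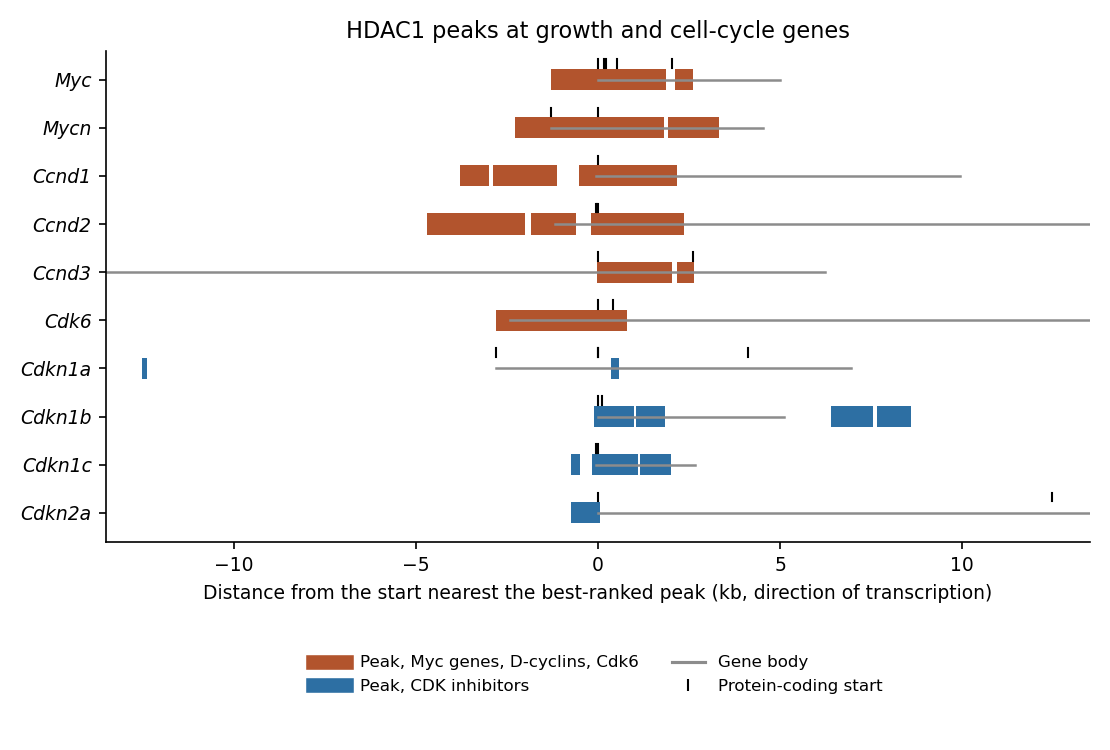
Peaks (boxes), gene bodies (grey lines) and protein-coding starts (black ticks) of the 10 genes, drawn to scale by distance in kb from the start nearest to the best-ranked peak, with transcription running to the right. The growth genes carry long boxes over or near that start, of up to 4100 bp at Mycn. Cdkn1b has 4 boxes of up to 1150 bp and Cdkn1c 3 of up to 1250 bp. Cdkn1a has short ones and Cdkn2a a box of 800 bp that ends just inside the gene. Genes longer than the plotted range are cut off, gaps of 50 bp are barely visible, and the upstream starts of Ccnd3 are beyond it.

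Among the inhibitor genes, Cdkn1b had the most peaks and the best rank. Cdkn1b (chromosome 6, 134920401 to 134925513, plus strand) encodes p27, an inhibitor of cyclin E complexes. A peak of 1100 bp at rank 1752 began 101 bp before the start and was followed after 50 bp by one of 800 bp at rank 11806. The other 2 peaks (1150 bp, rank 1942, and 950 bp, rank 3404) lay downstream of the gene, 6287 to 8486 bp from its last start. They reached into the promoter region of the long non-coding RNA Lockd, which begins there on the same strand, and none of the 3 Lockd starts was itself inside a peak.

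Cdkn1c (chromosome 7, 143458339 to 143461050, minus strand) is the imprinted gene of p57. Its peaks of 850 bp (rank 2825) and 1250 bp (rank 4748), 50 bp apart, covered most of this short gene, 73.8% of the body together, and the longer one held both starts. The remaining peak, of 250 bp, lay upstream at rank 14671, the last rank among the 23. The start of the antisense transcript Gm44732 was inside the peak of 850 bp.

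Cdkn2a had 1 peak, of 800 bp at rank 5229 (chromosome 4, 89294600 to 89295399). It covered the ARF start and 746 bp upstream of it. The INK4A start, at 89282192, was 12408 bp from the nearest peak.

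Cdkn1a, which encodes p21 and is a textbook target of p53, had the shortest peaks. Cdkn1a (chromosome 17, 29090976 to 29100727, plus strand) was the only one of the 10 genes with none of its coding starts inside a peak. A peak of 200 bp at rank 9832 (29094150 to 29094349) was wholly intronic, 369 bp downstream of the nearest start. The other peak, of 150 bp at rank 13157, lay 9580 bp upstream of the first start. Of the list, 96.2% of peaks were at least as long as the former and 99.9% at least as long as the latter.

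The growth genes were compared with the inhibitor genes in peak length. Over peaks, the median length was 2050 bp at growth genes (450 to 4100 bp, 13 peaks) and 825 bp at inhibitor genes (150 to 1250 bp, 10 peaks), beside 450 bp in the whole list. The longest peak of each gene was 2050 to 4100 bp in the 6 growth genes and 200 to 1250 bp in the 4 inhibitor genes, so the groups did not overlap in this measure. In descending order the lengths were 4100 bp at Mycn, 3600 bp at Cdk6, 3150 bp at Myc, 2700 bp at both Ccnd1 and Ccnd2, 2050 bp at Ccnd3, 1250 bp at Cdkn1c, 1150 bp at Cdkn1b, 800 bp at Cdkn2a and 200 bp at Cdkn1a. A peak of at least 2000 bp, a length set after these values had been seen and just under the 2050 bp of Ccnd3, was present at 6 of 6 growth genes and 0 of 4 inhibitor genes, against 2.77% of protein-coding genes. By peak, 7 of 13 at growth genes and 0 of 10 at inhibitor genes were that long, against 3.11% of the list. With 4 genes and 10 peaks, the counts of 0 at inhibitor genes are near these shares. The separation describes these 10 genes only. Of 8 other cyclin, kinase and CDK-phosphatase genes, 1 had a peak that long, and their longest peaks were 500 to 2050 bp. Cdk4 (1100 bp) and the further Myc gene Mycl (1200 bp) fell within the range of the inhibitor genes.

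The separation in length held for peaks as deposited and not once close neighbours were joined. With peaks joined across gaps of up to 1000 bp, each growth gene had exactly 1 block, of 2650 to 7050 bp. The inhibitor genes had 6 blocks, and their longest were 200 to 2750 bp, so that Cdkn1c (2750 bp) passed Ccnd3 (2650 bp). With a flank of 50 kb in place of 10 kb, the difference in median length between the groups was 425 bp instead of 1225 bp.

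Ranks separated the groups less clearly. The median rank was 1698 for growth-gene peaks (184 to 13123) and 4988.5 for inhibitor-gene peaks (1752 to 14671), beside 7674 for the list. The best rank of a gene was 184 to 3368 in growth genes and 1752 to 9832 in inhibitor genes, and these ranges overlapped through Myc. Among the first 1534 of the 15347 ranks were 6 of 13 growth-gene peaks and 0 of 10 inhibitor-gene peaks. With 10 peaks, a count of 0 is near the share of the list that these ranks make up. Without the 4 peaks of Cdkn1b the difference in median rank (growth minus inhibitor genes) was -5832.5 instead of -3290.5. Longer peaks stood earlier in the list, with a median of 1800 bp around the Mycn rank of 184 and of 200 bp around the Cdkn1c rank of 14671, so each peak was also set beside the peaks within 250 ranks of it, a comparison added after the values had been seen. Longer than the median of those were 12 of 13 growth-gene peaks and 7 of 10 inhibitor-gene peaks.

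**Figure D2:**
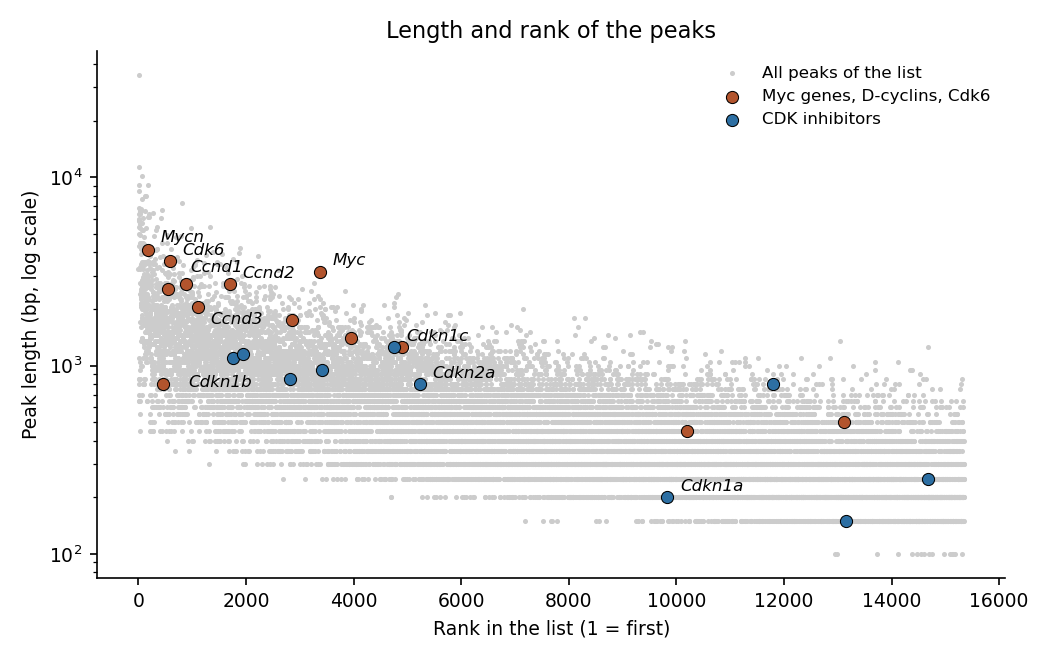
Length in bp (log scale) against rank for all 15347 peaks (grey), the 13 growth-gene peaks (brown) and the 10 inhibitor-gene peaks (blue), with the longest peak of each gene named. Growth-gene peaks reach from 450 to 4100 bp and no inhibitor-gene peak exceeds 1250 bp.

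The density of peaks overlapped between the groups. By gene it was 10.002 peaks per 100 kb of window at Ccnd1, 8.01 at Myc, 7.75 at Mycn, 6.38 at Ccnd2, 1.74 at Ccnd3 and 0.477 at Cdk6. At the inhibitor genes it was 15.9 at Cdkn1b, 13.2 at Cdkn1c, 6.72 at Cdkn1a and 2.49 at Cdkn2a. Pooled over windows, growth genes had 2.88 peaks per 100 kb and inhibitor genes 8.49, but Cdk6 and Ccnd3, with windows of 209524 and 114641 bp, weighed most in the former, which was 4.95 without Cdk6. The inhibitor value was 6.48 without Cdkn1b and 11.6 without Cdkn2a, and the medians over genes were 7.06 and 9.97. With a flank of 50 kb the difference in density (growth minus inhibitor genes) shrank from -5.62 to -0.49 peaks per 100 kb. The share of window bases covered was 5.97% pooled over the growth genes and 6.37% over the inhibitor genes, but the pooled values hide the spread between genes. Myc, Mycn, Ccnd1 and Ccnd2 were at 13.8 to 21.3%, Ccnd3 at 2.18% and Cdk6 at 1.72%. Cdkn1b was at 15.9%, Cdkn1c at 10.3%, Cdkn2a at 1.99% and Cdkn1a at 1.18%. The growth share was 9.65% without Cdk6, the inhibitor share was 3.78% without Cdkn1b, and the medians over genes were 14.2 and 6.17%.

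**Figure D3:**
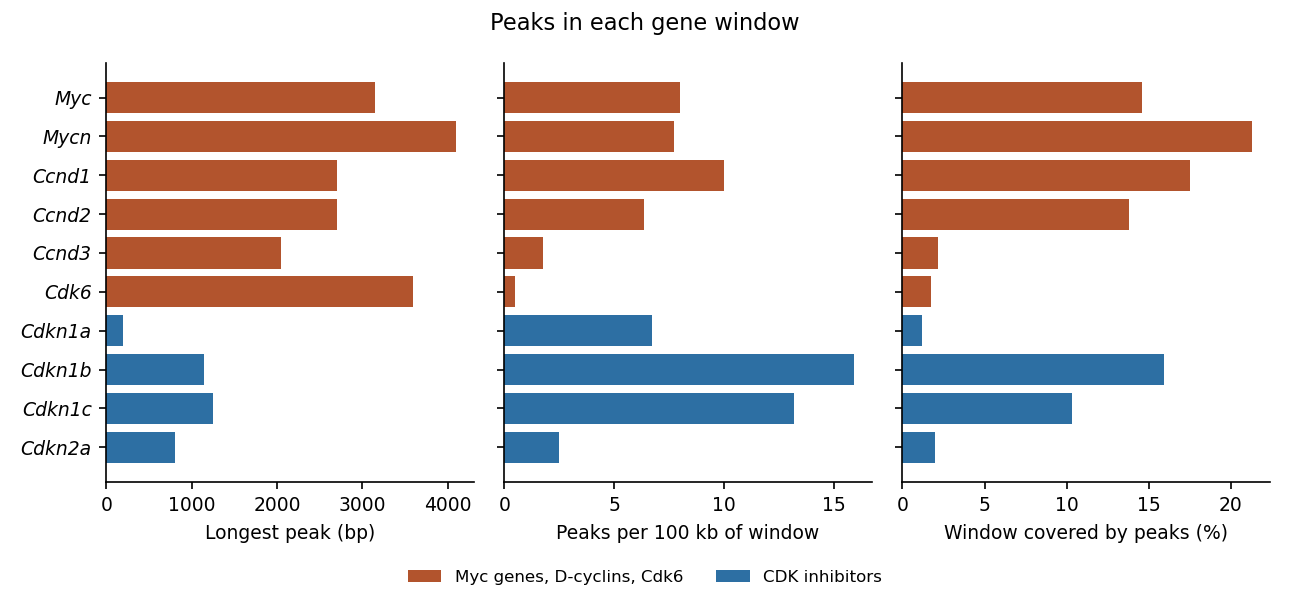
Longest peak in bp, peaks per 100 kb and percent of the window covered for each gene, with bars for growth genes in brown and for inhibitor genes in blue. The longest peaks are all at growth genes, whereas the density of peaks is highest at Cdkn1b (15.9 per 100 kb) and lowest at Cdk6 (0.477).

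The share of peaks at promoters was near that of the whole list. Of the 23 peaks, 17 lay in a promoter region of a protein-coding gene (73.9%, 95% Wilson interval 53.5 to 87.5%), in each case that of the gene itself, beside 70.1% of the list. The interval covers counting error over peaks only. The share was 11 of 13 at growth genes (84.6%, interval 57.8 to 95.7%) and 6 of 10 at inhibitor genes (60%, interval 31.3 to 83.2%), and these intervals overlapped. Promoter peaks had a median length of 2550 bp at growth genes and 800 bp at inhibitor genes, beside 550 bp over the promoter peaks of the list.

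The other 6 peaks were at Mycn, Ccnd1, Cdkn1a, Cdkn1b (2 peaks) and Cdkn1c. They were 150 to 1400 bp long with a median of 900 bp, beside 300 bp for the distal peaks of the list. Those of Mycn and Cdkn1c lay inside the gene, 1917 and 1147 bp downstream of the nearest start and thus past the promoter region. The Ccnd1 peak at rank 448 and the Cdkn1a peak at rank 13157 lay upstream of the gene, and both Cdkn1b peaks downstream of it.

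At 4 of the 10 genes the HDAC1 peaks did not cover every start. The genes had 29 distinct coding starts, and 19 lay inside a peak, beside 29.5% of the 41438 coding starts of all genes. The 10 outside were 4 at Ccnd3, 4 at Cdkn1a, 1 at Cdkn2a and 1 at Myc, the last only 78 bp from a peak. In the RefSeq windows of 300 bp (250 bases before a start to 50 after it), the covered ARF window of Cdkn2a held 45 CpGs and the uncovered INK4A window 12. The windows at Ccnd3 held 28 CpGs at the covered internal start, where 67 bp were in a peak, and 15 at the uncovered upstream start. The median over 32851 windows was 7. A CpG-rich start was not always covered, since the Cdkn1a start at 29093769, 381 bp from the intronic peak, had 23 CpGs in its window and 0 bases in a peak. The other Cdkn1a window, also without a peak, had 2. Among the remaining windows with a covered start, Cdkn1b held 30 CpGs and Cdk6 27. Mycn, with all 300 bp in a peak, held 14, fewer than the uncovered upstream window of Ccnd3.

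In base composition the growth-gene peaks had lower medians than the list in both measures, and the inhibitor-gene peaks in G+C content only. The median G+C content was 58.2% in growth-gene peaks, 59.8% in inhibitor-gene peaks and 62.9% in the list. The ratio of observed to expected CpG had medians of 0.64, 0.80 and 0.76 in the same order. The highest ratio was 1.09, at the ARF start of Cdkn2a, and the lowest was 0.13, in the peak of 450 bp at the second internal start of Ccnd3.

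**Figure D4:**
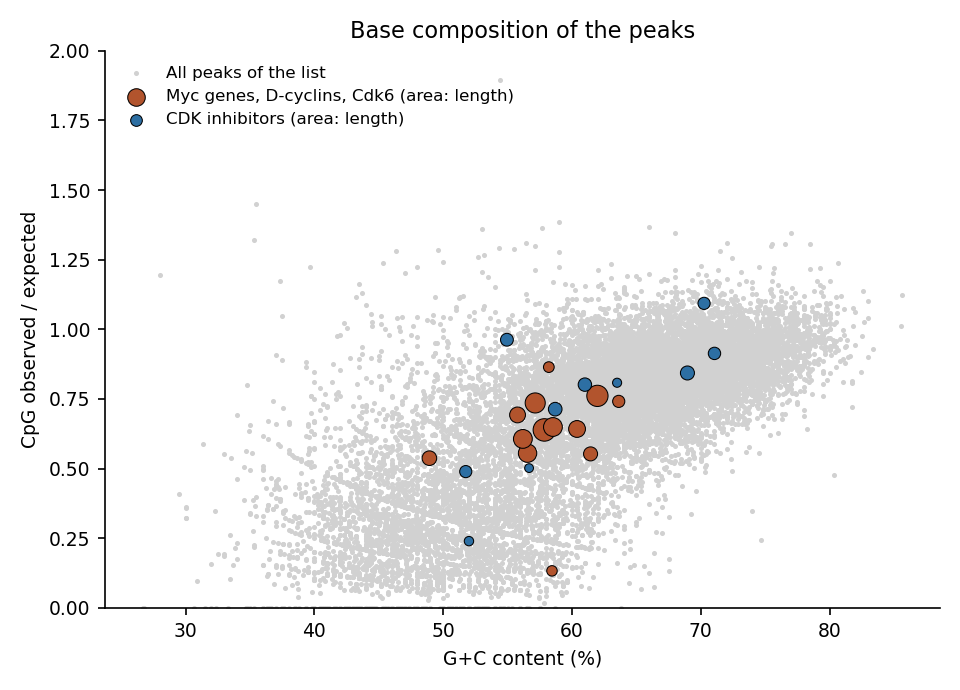
Ratio of observed to expected CpG against G+C content in percent for all peaks of the list (grey), growth-gene peaks (brown) and inhibitor-gene peaks (blue), with the area of a member's point growing with its length. Growth-gene peaks lie between 48.9 and 63.6% G+C, and inhibitor-gene peaks between 51.8 and 71.1%.

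Fixed motifs were counted on both strands of the peaks. The E-box CACGTG occurred in 7 of 13 growth-gene peaks, 14 times in all (0.52 per kb), and in 0 of 10 inhibitor-gene peaks, beside 14.2% of the peaks of the list (0.27 per kb). The growth-gene peaks summed to 27000 bp and the inhibitor-gene peaks to 7500 bp, so that the latter gave less sequence in which a match could fall. With 10 inhibitor-gene peaks, a count of 0 is not far from the share of 14.2% in the list. Cdk6 had 4 E-boxes and the short upstream Ccnd1 peak had 3, and none was in the peaks of Myc or Mycn. GGGCGG, the GC box of SP and KLF factors, was less dense than in the list, with 2.11 matches per kb at growth genes and 2.67 at inhibitor genes against 3.45. TTTGGCGC occurred only in the Mycn peak at rank 184 among the member peaks, 2 times, both in the stretch printed above, beside 1.46% of the peaks of the list and 0.51% of all RefSeq promoter windows. The E2F-type word TTTCCCGC was found in 2 growth-gene peaks and 1 inhibitor-gene peak, that at ARF, which gave 0.074 matches per kb at growth genes and 0.13 at inhibitor genes beside 0.062 in the list. Member peaks were longer than most of the list, so shares of peaks with a match favour them and the density is the closer comparison. GACCACCCA, the core of the site for GLI factors, which the study follows in the limb, had 1 match, in the upstream Ccnd2 peak of 2700 bp, and in 0.65% of the peaks of the list. TATAAA was in 6 growth-gene and 3 inhibitor-gene peaks, with 0.37 and 0.40 matches per kb beside 0.21 in the list. A match is a run of letters and not a measured binding site.

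HDAC1 was also present at most other genes of the pathway. Of 37 further genes in 5 lists, 36 had a peak in the window and 34 in their own promoter region, beside 53.8% and 43.9% of protein-coding genes. A peak of at least 2000 bp was present at 4 of the 37 genes, Ccne2, E2f3, Mnt and Mxi1, beside 2.77% of protein-coding genes, and the median of the longest peak was 825 bp, beside 700 bp over the 11800 protein-coding genes with a peak.

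Of 8 other cyclin, kinase and CDK-phosphatase genes, all had a promoter peak. Those with the best ranks were Ccne2 (rank 52, 2050 bp) and Ccna2 (rank 259, 950 bp), the genes of cyclins E2 and A2, which act after the D-type cyclins. All 13 genes of pocket proteins, E2F and DP factors had a promoter peak too, led by E2f2 (rank 76, 1000 bp) and E2f3 (rank 561, 2250 bp).

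Among 10 genes of the MYC network (partners, antagonists and the further Myc gene Mycl), 9 had a promoter peak, and Mlx had none. The promoter peak of Mycl was 1200 bp long at rank 3775. The leading genes encode repressors that compete with MYC for MAX. They were Mnt (rank 190, 2650 bp) and Mxi1 (rank 254, 4100 bp), and the latter matched Mycn in length. All 3 genes of the p53 axis had one, with Trp53 at rank 935 (1550 bp) and Mdm2 at rank 1828 (1100 bp).

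Of the 3 other INK4 genes, 2 had a peak in the window and 1 at its promoter, too few to set against the shares of 53.8% and 43.9%. The promoter peak was that of Cdkn2d, of 500 bp at rank 12450, while Cdkn2c had a peak of 800 bp at rank 3889 in its window but not at its promoter. Cdkn2b, the neighbour of Cdkn2a, had no peak in its window. Mlx, Cdkn2c, Cdk4 and Mycl were named after their values had been seen.

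**Figure D5:**
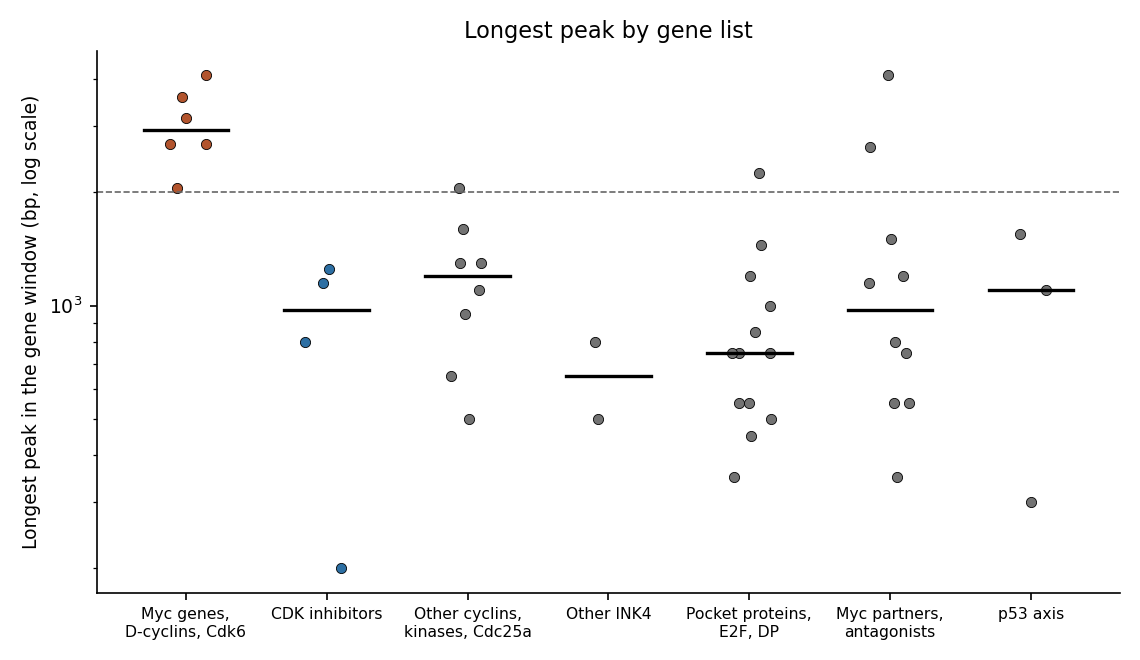
Longest peak in the window of each gene in bp (log scale), by gene list, with a bar at the median of the list and a dashed line at 2000 bp. All 6 growth genes lie above the line, and so do 4 of the 36 other pathway genes with a peak. All 4 inhibitor genes lie below it, near the share of all protein-coding genes, of which 2.77% had a peak of at least 2000 bp. Cdkn2b, without a peak, is not drawn.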

How the data were processed

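HDAC1 ChIP-seq was made from 4 ChIP samples and 3 inputs. By the submitters' processing notes the authors used Bowtie2 2.2.5 and build mm10, and by the study's methods CisGenome called the peaks, which were kept at a false discovery rate below 0.05. The deposited file has 3 columns of coordinates (chromosome, start, end). All starts were multiples of 50 bp, and positions were read as 1-based with both ends included. If they count from 0, they shift by 1 bp. Genes and starts were taken from the GENCODE M21 basic annotation (GRCm38), whose chromosomes are those of mm10, and sequence from GRCm38.p6. Overlap needed at least 1 bp. No test was run, since the list pools the samples. The 10 genes, the gene lists, the motifs and the comparisons were chosen with earlier results of these data known. Named were all 10 genes with every peak, the 2 genes of each list with the best-ranked promoter peak, and list genes without a peak, besides Mlx, Cdkn2c, Cdk4 and Mycl. Protein-coding neighbours with a start in a gene window were named too (Taf8). The non-coding neighbours 9330179D12Rik, Lockd and Gm44732 were named outside this rule, and other non-coding neighbours were not named. Alternatives were flanks of 0 and 50 kb, merging within 1000 bp, the first 7500 rows, peak centres, other promoter regions and starts, promoter peaks alone, the best peak of a gene, and each gene left out. For the density of peaks, leaving out genes and the median over genes were added after the data had been seen. On simulated data the gene windows and promoters equalled a base-by-base count for 400 of 400 genes. Python 3.11.15, numpy 2.4.6, pandas 2.3.3, scipy 1.17.1, pysam 0.24.0, samtools 1.23.1 and matplotlib 3.10.9 were used.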

Additional observations from a re-analysis of the deposited data

How the results depend on the processing

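The results were recomputed in 77 alternative values, of which 61 stayed within a factor of 1.5 of the reported one, or for the promoter share within its interval, 16 moved further and 0 changed direction. Only differences between the groups could change direction, and counts and shares could not. Leaving out peaks that overlap another coding gene removed 0 peaks, so those values could not move. The promoter share rose from 73.9% to 87.5% without a flank. The number of peaks at the 10 genes fell from 23 to 12 after merging, which joins peaks by construction. The difference in median length (growth minus inhibitor genes) was 1225 bp. It was 425 bp with a flank of 50 kb, 3375 bp after merging and 2025 bp for the best-ranked peak of each gene. The difference in median rank was -3290.5, and it was -1723.5 with a flank of 50 kb, -2005.5 in the first 7500 ranks and -5832.5 over promoter peaks. The difference in peaks per 100 kb was -5.62, and it was -12.9 without a flank, -0.49 with a flank of 50 kb, -2.66 in the first 7500 ranks and -2.90 as medians over genes, added after the data had been seen. Apart from merging, the cause was not tested. With each gene left out in turn the difference in length was 1075 to 1725 bp and that in rank -5832.5 to -2378, the former end without Cdkn1b. That in density, also added later, was -8.73 (without Cdkn2a) to -3.54 (without Cdk6), and -3.60 without Cdkn1b. In the first 7500 ranks 9 of the 10 genes kept a peak, and Cdkn1a had none. No paired analysis was possible because the authors merged the ChIP samples into 1 set of peaks, from which no replicate could be left out either. Read depth at a peak was not analysed here, so a site without a peak is not shown to lack HDAC1.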

Other observations

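Outside their windows the 10 genes differed in how far the next HDAC1 peak lay. Around Myc the list used here held no other peak within 1143392 bp of the gene body, and that nearest one was 200 bp long at rank 15112. For the other 9 genes the nearest outside peak was between 11009 bp (Ccnd3) and 57072 bp (Cdkn2a) away. Cdkn1a, with the shortest peaks in its own window, had as its nearest outside peak one of 2000 bp at rank 3291, 56677 bp from the gene. No cause was tested for these distances.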
